A study of Mus musculus with 3 samples.

Results

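The heat shock proteins and DnaJ cochaperones of mouse skeletal muscle were followed in mFoxO1KO and control animals. Members were the array probes, control probes aside, whose gene symbol began with Hspa, Hspb, Hspd, Hspe, Hsph, Hsp90, Dnaja, Dnajb or Dnajc, or was a Bag gene, an Hsf gene or Cryab, without Hspg2. The deposited columns used here hold probe and accession but no gene symbol, so the pattern was applied to the RefSeq symbol that each probe's accession matched. It found 117 of 39429 probes, which stand for 85 of the 32395 genes on the array (symbols, or accessions without one). Another 11921 probes took no symbol and may hold further members, so these counts are minimum counts. The names of Hspbp1, Hspbap1 and Hsf2bp match the pattern although these are binding partners, and they are counted among the 85 but set in no family.

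The mFoxO1KO mice carried a skeletal muscle-specific inducible deletion of Foxo1, the gene of a forkhead transcription factor. Control mice were set against them, and both genotypes were male C57BL/6 on AIN93G food. Both received doxycycline in it, at 0.625 g/kg, between the ages of 8 and 14 weeks, so that the controls carry this treatment too. The labels name neither the promoter behind the deletion nor the muscles taken beyond the lower limb. RNA of 3 mFoxO1KO and 3 control muscles was compared on 3 Agilent arrays of 2 colours, each with 1 knockout sample in Cy5 and 1 control sample in Cy3. No array had the dyes exchanged, so a probe's dye effect cannot be told apart from genotype in any ratio given here.

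Heat shock proteins bind other proteins that are unfolded, stretched or newly made and keep them from clumping or help them fold. HSP70 proteins do this in cycles of ATP use, DnaJ proteins (also called HSP40) bring them their clients and start the ATP step, and BAG proteins release the nucleotide. Small heat shock proteins hold unfolded proteins without ATP and in muscle sit on the Z-disc and its filaments, and HSF1 is the transcription factor that turns on many of these genes after heat or other stress.

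Across the 17460 genes tested, the 2 channels were compared as the log2 ratio of mFoxO1KO over control with limma's moderated test, and p-values were adjusted over all genes by Benjamini-Hochberg with 0.05 as the threshold. Intensities below are normalised log2 values on the array's scale, so they can be set side by side for 1 probe but not between probes. Errors after ± are the SD over 3 samples or 3 arrays. Foxo1 itself had a log2 intensity of 9.98 ± 0.18 in mFoxO1KO muscle, against 12.05 ± 0.67 in control muscle. Its log2 ratios of -1.50, -2.42 and -2.27 averaged -2.06 ± 0.49 (n = 3, limma adjusted p = 0.0278), in the direction of the labels on every array, and -1.88 with adjusted p = 0.106 without array 2. It was not determined here whether the probe lies in the deleted stretch. The muscle fibre markers were bright in every sample, with summed linear intensities of 795835 to 818353 in mFoxO1KO muscle and 743756 to 775826 in control muscle. Of the 8 fibre markers only Mb, the oxygen-binding protein myoglobin, passed the test, with a log2 ratio of 0.57.

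In the bases just before the gene start, 5 promoters are shown for genes that the results below turn on: the member that rose, 3 classical heat-inducible genes, and Hspb7. HSF proteins bind inverted repeats of the unit GAA, and the capitals mark every match to GAANNTTC or TTCNNGAA, where matches may overlap. Each of these motifs is its own reverse complement, so 1 search covers both strands. Sequences are RefSeq's, GRCm38.p6, 120 bases up to the start, given 5′ to 3′ on the gene's strand.
Dnaja4: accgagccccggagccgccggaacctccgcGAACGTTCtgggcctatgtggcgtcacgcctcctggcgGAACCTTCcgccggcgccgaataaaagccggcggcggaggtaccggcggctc
Hspb1: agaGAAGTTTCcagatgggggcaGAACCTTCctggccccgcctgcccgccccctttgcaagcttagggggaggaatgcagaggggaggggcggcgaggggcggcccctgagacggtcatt
Hspa1a: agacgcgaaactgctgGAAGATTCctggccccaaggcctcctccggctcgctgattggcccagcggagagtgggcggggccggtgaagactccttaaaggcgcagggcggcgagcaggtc
Hspe1: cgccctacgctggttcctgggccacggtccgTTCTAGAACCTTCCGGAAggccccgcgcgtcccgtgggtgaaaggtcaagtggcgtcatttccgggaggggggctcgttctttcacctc
Hspb7: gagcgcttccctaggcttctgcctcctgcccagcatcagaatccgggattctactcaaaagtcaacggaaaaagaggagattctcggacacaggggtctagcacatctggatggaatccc
They lie at chr9:54699439-54699558 (plus strand), chr5:135887799-135887918 (plus), chr17:34972157-34972276 (minus), chr1:55088028-55088147 (plus) and chr4:141420659-141420778 (plus) in the order shown. The windows of Dnaja4 and Hspb1 hold 2 matches each and that of Hspa1a holds 1. In Hspe1 there are 3 overlapping matches, which also make 2 matches of the longer motif with 3 units, GAANNTTCNNGAA or its reverse complement TTCNNGAANNTTC. In the window of Hspb7 these letters do not occur. Dnaja4 has 2 starts in the table, and the one with more matches is shown.

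Over the full 250 bases before the start, the motif of 2 units was found in 14 of the 67 members with an entry in the promoter table (20.9%), against 14.5% of all 27025 genes there. The members were Dnaja1, Dnaja4, Dnajb4, Dnajb6, Dnajc10, Dnajc27, Hsf5, Hspa1a, Hspb1, Hspb3, Hspb6, Hspd1, Hspe1 and Hsph1. The motif of 3 units was found in Dnajb6, Hspd1 and Hspe1 (4.48% of the 67), against 0.514% of all genes. These are matches of letters and not measured binding.

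Of the 85 member genes, 72 passed the filter on dim probes and were tested, 71 of them above background in all 6 channels. Dnajb3, a DnaJ gene known from testis, was too dim on all control arrays to be told from background there and passed the filter through the knockout channel alone. Its mean log2 intensities were 6.76 in mFoxO1KO muscle and 6.58 in control muscle, and the groups overlapped. The ratio of 0.18 (1.13-fold) did not pass (95% interval -0.02 to 0.38, limma adjusted p = 0.221). The 13 genes not tested were Dnajb7, Dnajb8, Dnajb13, Dnajc5b, Dnajc5g, Dnajc6, Dnajc22, Hsf2bp, Hsf3, Hsf5, Hspbap1, Hspa12a and Hspb9. The first 11 of these were not well above background in any channel. Hspa12a reached that level on 1 control array only, and Hspb9 on 2 arrays in each channel.

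As a group, the chaperone genes differed little between the genotypes. Their median log2 ratio was 0.022, against 0.0064 over all genes tested, and 54 of the 72 lay within 0.25 of 0. The members' median was 0.062 without array 1 and 0.011 without array 2. Means above 0 were found for 41 members and below 0 for 31, where 51.8% of all genes had a mean above 0. Per array the members' medians were 0.037, 0.031 and 0.039, against 0.022, -0.0023 and 0.0077 over all genes. The threshold was passed by 2 of the 72 members (2.78%), against 2.75% of all genes tested. The first was Dnaja4, which rose (359 genes higher, 2.06% of all genes), and the second was 1 of the 2 probes of Dnajc19, which fell (0.699% of all genes fell). At an unadjusted p under 0.05 there were 21 members (29.2%), against 26.8% of all genes. A single sign on all 3 arrays was found for 46 members (63.9%), 28 above 0 and 18 below, against 52.4% of all genes. Dnajb3, which passed the filter through the knockout channel alone, is counted among these 28 and among the 41 means above 0. Over the 71 members above background in both channels, 40 means lay above 0 and the median was 0.021. In 12 members the 3 mFoxO1KO intensities lay above all 3 control intensities, which held for 9.6% of all genes, and in 4 they lay below, which held for 9.74%.

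**Figure D1:**
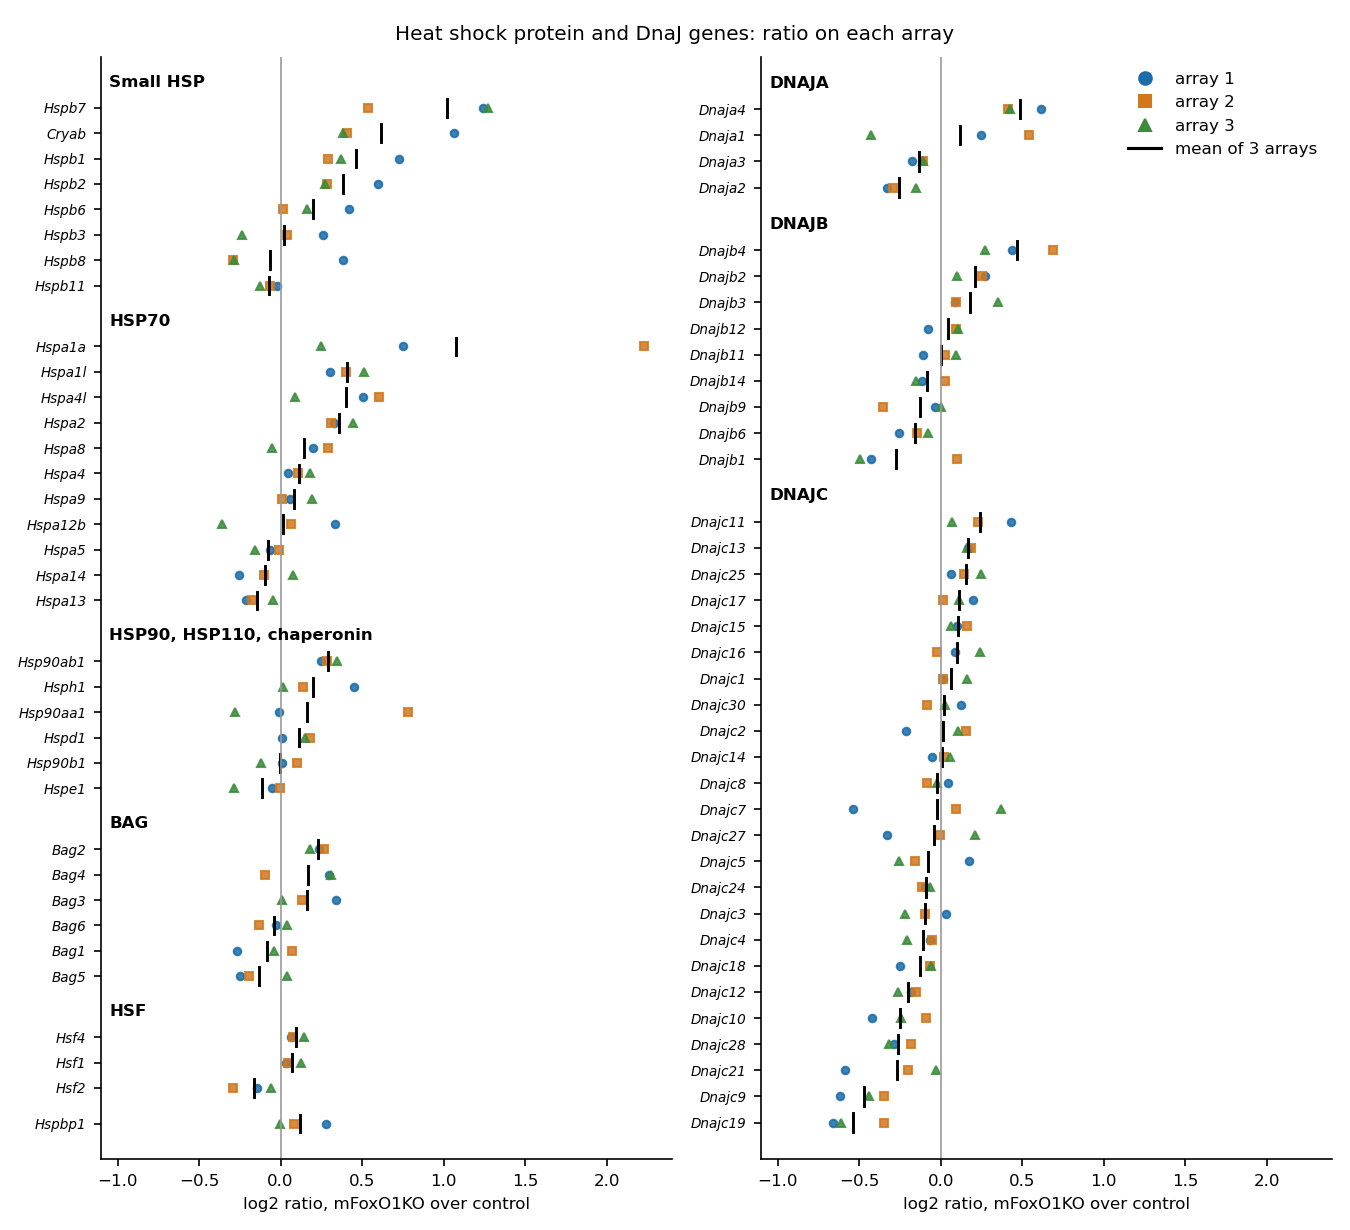
Log2 ratio of mFoxO1KO over control on each of the 3 arrays for the 72 members tested, by family (symbols are arrays, black bars the mean). Small heat shock proteins sit mostly right of 0 with array 1 farthest right, Hspa1a is spread between 0.25 and 2.23, and most DNAJC genes lie within 0.25 of 0.

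Small heat shock proteins had the highest family median, 0.29 over 8 genes, with 0.51, 0.16 and 0.22 on arrays 1, 2 and 3, and 0.18 without array 1. None of the 8 passed the test. In 5 of them all 3 ratios were above 0, against 27.9% of all genes, and in 4 the mFoxO1KO intensities lay above the control intensities without overlap, against 9.6% of all genes. These 4 were Hspb7, Cryab, Hspb1 and Hspb2.

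Hspb7, the cardiovascular small heat shock protein that binds filamin C, had log2 intensities of 10.256, 9.839 and 10.426 in mFoxO1KO muscle, against 9.012, 9.304 and 9.152 in control muscle. All knockout samples were above all controls. The mean log2 ratio was 1.02 ± 0.42 (95% interval 0.59 to 1.44, 2.03-fold), with limma adjusted p = 0.0532, which misses the threshold. Without array 2 the ratio was 1.26 and passed, at limma adjusted p = 0.0499. It did not pass without array 1 or without array 3, and it passed in 4 of 15 processing alternatives.

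Cryab encodes αB-crystallin, which guards desmin and titin. Its brighter probe read 16.23, 15.92 and 15.93 in mFoxO1KO muscle and 15.16, 15.52 and 15.54 in control muscle, a log2 ratio of 0.62 ± 0.39 (limma adjusted p = 0.0958). The groups did not overlap, and the lowest control and the highest knockout sample shared array 1, where the ratio was 1.07. The second Cryab probe gave 0.48 ± 0.26, again without overlap. Cryab was named after its values were seen.

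Hspb1, known as HSP25 in the mouse and tied to the actin filament, had 16.70, 16.50 and 16.53 in mFoxO1KO muscle, against 15.97, 16.21 and 16.16 in control muscle. Its ratio was 0.46 ± 0.23 (limma adjusted p = 0.0806). Hspb2, which binds the myotonic dystrophy kinase and lies next to Cryab on chromosome 9, had 14.17, 14.04 and 14.14 in mFoxO1KO muscle, against 13.57, 13.75 and 13.87 in control muscle. Its ratio was 0.38 ± 0.19 (limma adjusted p = 0.0839). In both genes every knockout sample was brighter than every control sample.

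The other 4 small heat shock proteins overlapped between the genotypes and are named here after their values were seen. Hspb6 (HSP20) had a log2 ratio of 0.20 ± 0.20, Hspb3 one of 0.02 ± 0.25, and Hspb11, which works in cilia as an intraflagellar transport protein, one of -0.07 ± 0.05. Hspb8, the partner of BAG3 in clearing damaged filament proteins, had 0.38 on array 1 but -0.29 and -0.28 on arrays 2 and 3. Array 1 gave the highest ratio of each small heat shock protein except Hspb7, whose highest was on array 3.

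Fat cell markers had higher ratios on arrays 1 and 3 than on array 2. Of the 7 adipocyte markers 6 were tested, 5 of which were above 0 on all arrays, and none passed the test, with Lep not well above background. Their median log2 ratio was 2.89, 0.21 and 1.84 on arrays 1, 2 and 3, and their summed linear intensity was 99471 to 197672 in mFoxO1KO muscle, against 39158 to 91837 in control muscle. Of the 3 brown fat markers 2 were tested and neither passed, while Ucp1 had a probe but did not enter the test. Cidea, whose protein coats lipid droplets, gave log2 ratios of 4.035, 1.330 and 4.004. Dio2, which activates thyroid hormone, gave -0.14, 0.46 and 0.23. Hspb7 had its lowest ratio, 0.54, on array 2 too, as did Hspb1, Hspb6 and Hspb8. Cryab, Hspb2, Hspb3 and Hspb11 had theirs on array 3. In Cryab, Hspb2 and Hspb8 the ratios of arrays 2 and 3 were nearly equal. The part of fat tissue in the chaperone ratios was not tested. In muscle pieces, more cells of a type and more RNA per cell cannot be told apart.

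Among the HSP70 genes, which hold the heat-inducible, the constitutive and the organelle forms, 11 of 12 were tested and none passed. Their median log2 ratio was 0.11, or 0.20 without array 3, with 8 means above 0 and 3 below. Hspa1a, the heat-inducible HSP70, had the largest mean ratio of all members and also the largest spread. Its log2 intensities were 8.08, 9.93 and 8.34 in mFoxO1KO muscle, against 7.32, 7.70 and 8.09 in control muscle. The groups overlapped, and the knockout sample of array 2 stood far above the others. The ratio was 1.08 ± 1.03 (95% interval 0.09 to 2.07, limma adjusted p = 0.164), made of 0.75, 2.23 and 0.25. No probe here matched Hspa1b, a near-identical copy of Hspa1a, so the signals of the 2 genes cannot be told apart. Hspa1a was named after its values were seen.

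Hspa1l, a neighbour of Hspa1a known mainly from testis, had 9.211, 9.415 and 9.809 in mFoxO1KO muscle, against 8.911, 9.012 and 9.298 in control muscle, with a ratio of 0.40 ± 0.11 (limma adjusted p = 0.0542). It was higher on each array although the groups overlapped. Hspa2 read 8.94, 8.98 and 9.10 in mFoxO1KO muscle and 8.61, 8.67 and 8.66 in control muscle, without overlap, for a ratio of 0.36 ± 0.07 (limma adjusted p = 0.0549). Hspa4l, of the HSP110 branch that recharges HSP70, had a ratio of 0.40 ± 0.27 (limma adjusted p = 0.116).

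The main constitutive form, Hspa8 (HSC70), was named after its values were seen. It had 15.12, 15.07 and 15.03 in mFoxO1KO muscle, against 14.91, 14.78 and 15.08 in control muscle, with overlap and a log2 ratio of 0.15 ± 0.18 (limma adjusted p = 0.331). Its other 2 probes gave 0.18 and 0.37. Hspa4, also named after its values were seen, depended on the probe, with 0.11 ± 0.07 at the brightest and -0.17 and -0.15 at the others.

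HSP90, HSP110 and the mitochondrial chaperonin were represented by 6 genes, all tested, with none past the threshold and a median log2 ratio of 0.14, which was 0.012 without array 2. Hsp90ab1, the constitutive cytosolic HSP90, was the steadiest of them. It had 16.26, 16.24 and 16.50 in mFoxO1KO muscle, against 16.01, 15.96 and 16.15 in control muscle, without overlap. The ratio was 0.29 ± 0.05 (95% interval 0.15 to 0.44, limma adjusted p = 0.0677).

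Its inducible sister Hsp90aa1 had 11.44, 12.02 and 11.29 in mFoxO1KO muscle, against 11.45, 11.24 and 11.57 in control muscle. The groups overlapped, and the ratios of -0.01, 0.78 and -0.28 averaged 0.17 ± 0.55 (limma adjusted p = 0.65), which turned to -0.14 without array 2. This gene was named after its values were seen. Hsph1, the HSP110 that works with HSP70 on clumped proteins, had 0.20 ± 0.22, and Hspd1, the mitochondrial HSP60, 0.11 ± 0.09. Hspe1, the lid of that chaperonin and likewise named after its values were seen, depended on the probe. Its brightest probe gave -0.11 ± 0.15 (limma adjusted p = 0.391) and the others gave -0.17 and 0.06. Hspe1 shares a promoter with Hspd1 in mammals.

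The array with the highest ratio differed between genes. For Hspa1a, Hsp90aa1, Dnaja1, Dnajb1, Dnajb4, Hspa4l and Hspa8 it was array 2, and for Cryab, Hspb1, Hspb2, Hspb6, Hspb3, Hspb8, Hsph1 and Bag3 it was array 1, so that heat-inducible genes are in both sets. These genes were picked after their values were seen, and each array is a single pair of muscles.

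**Figure D2:**
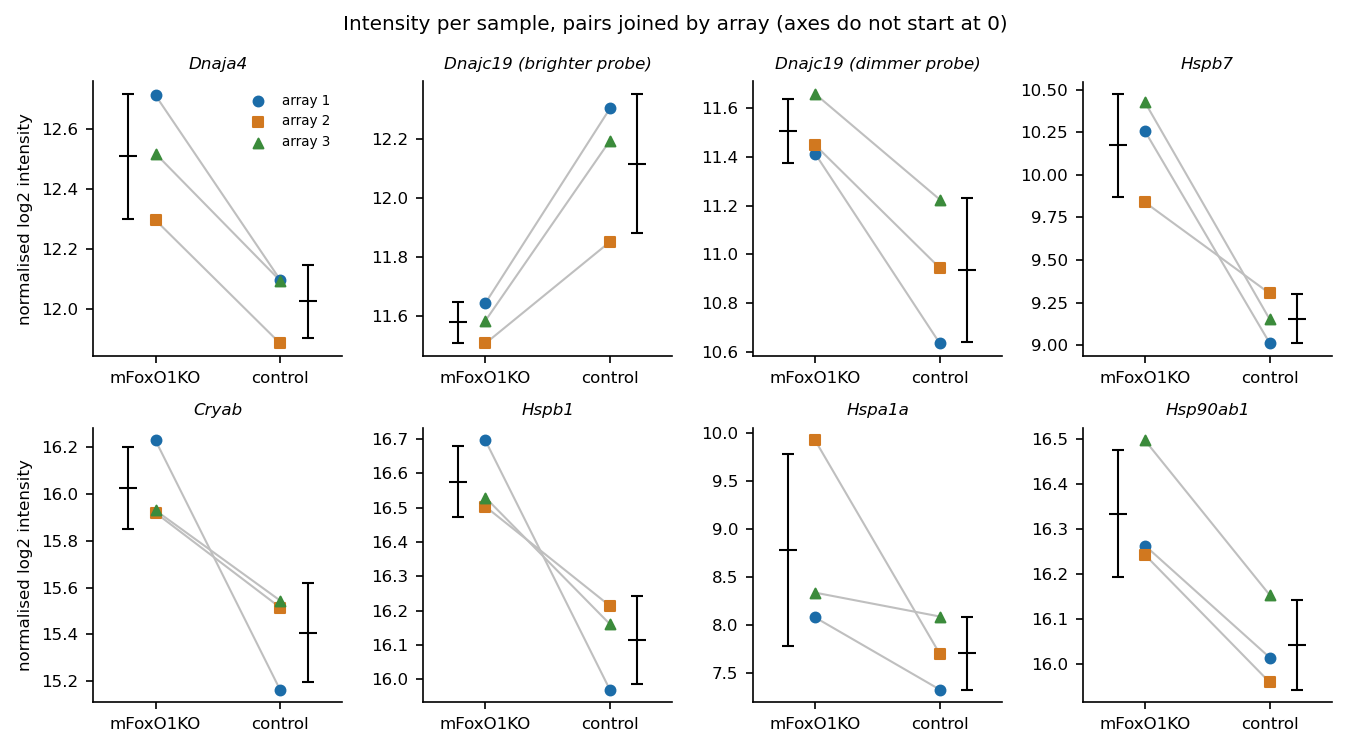
Normalised log2 intensity of 8 probes in each mFoxO1KO and control sample, joined by array, with mean and SD of 3 samples beside each group (axes do not start at 0). Knockout samples lie above controls without overlap for Dnaja4, Hspb7, Cryab, Hspb1, Hsp90ab1 and the dimmer Dnajc19 probe, below for the brighter Dnajc19 probe, and with overlap for Hspa1a.

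The DnaJ cochaperones came to 44 genes, of which 37 were tested, with a median log2 ratio of -0.02, and 17 means above 0 and 20 below. Dnajb3 is counted among the 17. The medians of DNAJA, DNAJB and DNAJC were -0.0064, 0.0030 and -0.033, and each had the other sign under some of the processing alternatives. The DNAJB median was -0.039 over the 8 genes above background in both channels, which leave out Dnajb3. Dnaja4, a farnesylated partner of HSP70, was the only member to rise at its brightest probe. Its log2 intensities were 12.71, 12.30 and 12.52 in mFoxO1KO muscle, against 12.10, 11.88 and 12.09 in control muscle, and the groups did not overlap. The ratio was 0.48 ± 0.11 (95% interval 0.31 to 0.66, 1.4-fold, n = 3, limma adjusted p = 0.0486). Its second, dim probe read 7.28, 7.36 and 7.27 in mFoxO1KO muscle and 6.87, 6.98 and 7.14 in control muscle, a ratio of 0.31 ± 0.15. The call was lost without any 1 of the 3 arrays, where limma adjusted p was 0.0605, 0.176 and 0.0857.

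Dnaja2, a cytosolic form, had a ratio of -0.26 ± 0.10 at its brighter probe, below 0 on each array. Its second probe gave -0.22 ± 0.25, with 0.01 on array 3. Dnaja3, a mitochondrial form, had -0.13 ± 0.04, also below 0 on each array. Dnaja1, which was named after its values were seen, spread over 0.25, 0.54 and -0.43.

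In the DNAJB branch 9 of 12 genes were tested and none passed. Dnajb4 had 9.04, 9.36 and 9.17 in mFoxO1KO muscle, against 8.60, 8.67 and 8.90 in control muscle, without overlap, for a ratio of 0.47 ± 0.21 (limma adjusted p = 0.0717). Dnajb2 had 0.21 ± 0.10 at its brighter probe, and 0.04 ± 0.09 with mixed signs at the other. Dnajb6, in which mutations cause a human limb-girdle muscular dystrophy, had -0.16 ± 0.09 with 4 probes that were all below 0. Dnajb1, the classical heat-inducible HSP40, had 11.31, 11.16 and 10.34 in mFoxO1KO muscle, against 11.74, 11.06 and 10.84 in control muscle. It overlapped, with -0.28 ± 0.33, and was named after its values were seen.

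DNAJC proteins carry the J domain in otherwise unlike proteins. Of 28 genes 24 were tested, with 9 below 0 and 6 above 0 on all arrays, where 24.5% and 27.9% of all genes lay. Dnajc9, a histone chaperone, had 10.64, 10.66 and 10.64 in mFoxO1KO muscle, against 11.26, 11.01 and 11.08 in control muscle. The groups did not overlap, and the ratio was -0.47 ± 0.14 (limma adjusted p = 0.0515). Dnajc28 likewise lay lower without overlap, at -0.26 ± 0.07 (limma adjusted p = 0.0858).

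Dnajc19, a subunit of the motor that pulls proteins into mitochondria, had 2 probes that went opposite ways. The brighter probe, with accession NM_026332, read 11.64, 11.51 and 11.58 in mFoxO1KO muscle and 12.30, 11.85 and 12.20 in control muscle. Its ratio was -0.54 ± 0.17 (95% interval -0.75 to -0.33, limma adjusted p = 0.0498). The dimmer probe, NM_001026211, read 11.41, 11.45 and 11.66 in mFoxO1KO muscle and 10.63, 10.94 and 11.23 in control muscle, for a ratio of 0.57 ± 0.18. Neither probe overlapped between the genotypes. With every probe tested on its own, both passed, at limma adjusted p = 0.0489 for the brighter and 0.048 for the dimmer. The mean of the 2 probes was 0.017, so these arrays give no direction for the gene as a whole. The fall of the brighter probe did not pass without array 1, 2 or 3, at limma adjusted p of 0.0781, 0.133 and 0.109.

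Among 21 member genes with several probes past the filter, 49 probes in all, 7 had probes whose means differed in sign. Dnajc19 was the only one of them with opposite signs on every array.

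**Figure D3:**
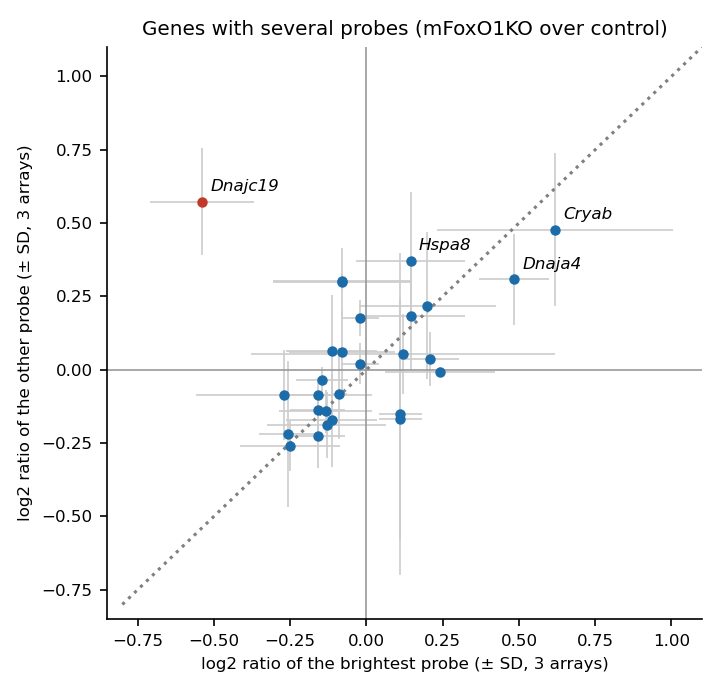
Log2 ratio (mFoxO1KO over control) of the other probes of a gene against that of its brightest probe, each the mean of 3 arrays with SD bars, and a dotted line where both are equal. Dnajc19 (red) lies alone at the upper left, at -0.54 and 0.57, while both probes of Dnaja4 and of Cryab are above 0.

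Chaperones of the endoplasmic reticulum and of mitochondria were looked at side by side, with genes grouped and named after their values were seen and without claim to a full list. In the endoplasmic reticulum, Hspa5 (BiP) had a log2 ratio of -0.07 ± 0.08 and Hspa13 one of -0.14 ± 0.09 at its brighter probe. Dnajb9 had -0.13 ± 0.19 and Dnajc10 had -0.25 ± 0.16. Each of these was below 0 on all arrays, while the second Hspa13 probe gave -0.035 with mixed signs. Dnajc1, with 0.06 ± 0.08, was above 0 on all arrays. Mixed signs were seen for Hsp90b1 (GRP94) at -0.0043 ± 0.11, Dnajb11 at 0.0030 ± 0.10 and Dnajc3 at -0.10 ± 0.13. In mitochondria, Hspa9 (mortalin) had 0.09 ± 0.10, Dnajc15 had 0.11 ± 0.05 and Dnajc11 had 0.24 ± 0.18 at its brighter probe. These and Hspd1 were above 0 on all arrays, while the second Dnajc11 probe gave -0.0061 with mixed signs. Dnaja3 and the brightest probes of Hspe1 and Dnajc19 were below 0 on all arrays, and the dimmer Dnajc19 probe was above 0. Dnajc30 had 0.02 ± 0.10 with mixed signs. Of all these genes, only Dnajc19 passed the test, with its other probe going the opposite way.

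BAG proteins, the nucleotide exchange factors, gave 6 tested genes, none past the threshold, with a median log2 ratio of 0.06, which was 0.0099 without array 3. Bag2, which slows the ubiquitin ligase CHIP, averaged 10.08 ± 0.08 in mFoxO1KO muscle and 9.85 ± 0.12 in control muscle, without overlap, and had a ratio of 0.23 ± 0.04 (limma adjusted p = 0.094). Bag3, which directs damaged Z-disc proteins to autophagy together with Hspb8, had 0.16 ± 0.17, and Bag5 had -0.13 ± 0.15. Both overlapped.

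The heat shock factors that control the programme were near 0. Hsf1 had log2 intensities of 11.17, 11.23 and 11.54 in mFoxO1KO muscle, against 11.13, 11.18 and 11.41 in control muscle, with overlap. Its ratio was 0.07 ± 0.05 (95% interval -0.08 to 0.22, limma adjusted p = 0.478). Hsf4 had 0.10 ± 0.04 and Hsf2 had -0.17 ± 0.12. These are transcript levels and do not report the activity of HSF1, which is set on the protein.

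A list of 60 genes of protein folding was set up for their roles, but with earlier results of these data known. It held 1 member, Hspbp1, and otherwise genes outside the families above. Of the 60, 58 were tested and 1 passed, upward, against 2.75% of all genes past the threshold. Their median log2 ratio was 0.07, with 39 means above 0 and 19 below, against 51.8% of all genes above 0. On all arrays 22 lay above 0 and 7 below, against 27.9% and 24.5% of all genes. Clpb, a mitochondrial disaggregase, had 12.06, 12.13 and 12.46 in mFoxO1KO muscle, against 11.72, 11.63 and 11.88 in control muscle. It rose by 0.47 ± 0.12 (limma adjusted p = 0.0492), and the call was lost without array 2 or array 3, at limma adjusted p of 0.2 and 0.108.

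A further 3 were named after their values were seen. St13, the HSP70-interacting protein, had 0.39 ± 0.10 (limma adjusted p = 0.0555). Flnc, the Z-disc filamin that BAG3 and small heat shock proteins tend, had 15.29, 15.15 and 15.36 in mFoxO1KO muscle, against 14.56, 14.83 and 14.81 in control muscle, a ratio of 0.53 ± 0.20 (limma adjusted p = 0.0567). Fkbp5, an HSP90 cochaperone of steroid receptors, had 13.12, 13.38 and 13.96 in mFoxO1KO muscle, against 12.14, 12.93 and 12.72 in control muscle, a ratio of 0.89 ± 0.40 (limma adjusted p = 0.06). In all 3 genes the groups did not overlap. Of the 58 genes of the list that were tested, 8 lay above the controls without overlap and 5 below. Over all genes these shares were 9.6% and 9.74%. The 5 below, also named after their values were seen, were Pfdn4, Pfdn6, Ptges3, Clpx and Unc45b.

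How far these family values rest on dye normalisation can be seen from centring alone. With each array centred on its median and no loess, the median over all genes tested was 0.16 in place of 0.0064, and 1153 genes were called higher and 51 lower, against 359 and 122 with loess. Members then had a median of 0.24 and small heat shock proteins one of 0.61, with every family median above 0. In that setting 11 members passed, all higher, namely Cryab, Dnaja4, Dnajb4, Hsp90ab1, Hspa1a, Hspa1l, Hspa2, Hspa4l, Hspb1, Hspb2 and Hspb7. The medians of small heat shock proteins, HSP70, the HSP90 group, BAG and HSF genes were above 0 under all alternatives run.

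**Figure D4:**
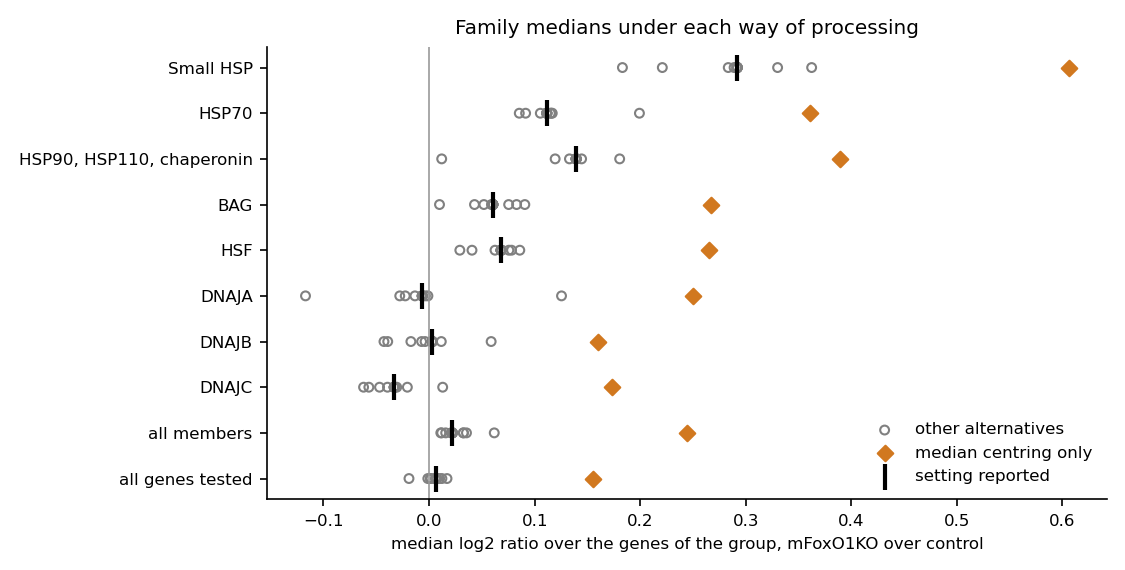
Median log2 ratio (mFoxO1KO over control) of each family, of all 72 members and of all 17460 genes tested, as reported (black bars), with median centring only (diamonds) and under the other alternatives (circles). Small heat shock proteins lie at 0.29 as reported and between 0.18 and 0.61 over all settings, while the DNAJA, DNAJB and DNAJC medians fall on both sides of 0.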

How the data were processed

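Each of 3 Agilent arrays of 2 colours gave 1 deposited table of 44397 spots. Per the file headers, Agilent Feature Extraction 11.5.1.1 made it, while the submitters' processing notes name version 9.3.2.1. The deposited intensity values used were the median signal and median local background of each channel as scanned, and the deposited log10 ratio of processed red over green served as an alternative.

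In limma 3.58.1 (R 4.3.3), signals went through normexp with offset 50 and then loess within each array, where control spots had weight 0. Outlier spots, 281 to 319 per array, were left out. No spot was saturated, and the software marked 56.1% to 56.9% of probes as above background in the knockout channel and 52% to 55.9% in the control channel. Probes well above background in one channel on all 3 arrays were kept. A gene took its brightest probe. Symbols came from matching 27508 of 39429 accessions to RefSeq (GRCm38.p6). The other 11921 stayed unnamed. An intercept-only fit (lmFit, eBayes, two-sided) asked whether the ratio differed from 0. It was also run on simulated data, with spreads taken from these arrays. There it called 21 of 50 genes changed 1.5-fold, 36 of 50 changed 2-fold, and 5 unchanged genes. Channels of 1 array are paired by the array. All arrays lay on 1 slide and were scanned together per the file headers, so no batch could be tested. The labels call the samples biological replicates. Having only 3 arrays limits how precise a ratio is.

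The members and lists were chosen with earlier results of these data known. Genes named were members past the threshold, the 3 members of each family with the smallest p, Hsf1, and partner genes past the threshold. Others are said to have been named after their values were seen. Alternatives covered background, dye normalisation, filter, probe choice, variance model, pairing and single arrays. Of the marker lists for muscle fibre, adipocyte, brown adipocyte, endothelial, macrophage, erythroid, fibroblast, keratinocyte and Schwann cells, only the fibre list held a gene past the threshold.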

Additional observations from a re-analysis of the deposited data

How the results depend on the processing

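The median ratio of the members stayed above 0 in all 15 alternatives, while the calls did not stay. Dnaja4 passed in 7 of the 15, Dnajc19 in 5, Clpb in 9 and Hspb7, not called in the reported setting, in 4. Calls over all genes numbered 254 with normexp offset 16, 200 with the deposited log ratios, 1204 with median centring only, 55 for probes above background in both channels, 746 with no filter and 105 with no replicate block, and 49 to 405 with single arrays left out. Members called higher numbered 2 with no background subtraction, 0 with offset 16, 11 with median centring, 0 for both channels, 4 with no filter, 0 for the mean of a gene's probes, 2 with an intensity trend, and 0 to 1 with single arrays left out. Members called lower numbered 0 with no background subtraction, offset 16, deposited ratios, median centring, both channels, the mean of probes, no replicate block and each array left out, and 2 with no filter or an intensity trend. Partners called numbered 0 with offset 16, deposited ratios, both channels and no replicate block, 5 with median centring, 4 with no filter, 3 with an intensity trend, and 0 to 1 with single arrays left out. Member and partner counts with no filter cover only genes tested in the reported setting, so the 13 untested members were not counted. The median of the members was 0.035 with no background subtraction, 0.016 with offset 16, 0.012 with deposited ratios, 0.24 with median centring, 0.033 with the mean of probes, and 0.011 to 0.062 with single arrays left out. Foxo1 ran between -2.35 and -1.88 with single arrays left out, and missed the threshold without array 2. With median centring the sign turned for Bag5 (0.074), Dnaja2 (0.0086), Dnaja3 (0.14), Dnajb6 (0.091), Hsf2 (0.023), Hspa5 (0.20) and Hspe1 (0.15). With the mean of probes it turned for Dnajc19 (0.017) and Hspa4 (-0.070). Single arrays left out put Hsp90aa1 between -0.14 and 0.39 and Dnaja1 between -0.092 and 0.39, both below 0 without array 2. The cause of these changes was not tested, except that the two-channel filter, the choice of probes and the arrays left out change what enters the test. The replicate block, with the array number as a term in a fit of separate channels, gave the same 481 calls as the ratio fit, since the 2 fits are one model. Of 39 results for single genes, 28 kept their sign in all alternatives.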
